A study of Mus musculus with 17 samples.

Results

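The genes described here are 30 mouse genes of sterol synthesis and of the pathway around SREBP2, the membrane-bound transcription factor that sets the supply of cholesterol in a cell. They were taken by name from a list drawn up with earlier results of these data known. Shares of all genes set beside their counts are therefore given for scale and are not a test of the list. All 30 were found among the 54532 genes of the deposited tables. By role they comprise 5 enzymes of the mevalonate route, 3 of isoprenoid synthesis, 3 that make squalene and lanosterol, 9 that turn lanosterol into cholesterol, SREBP2 itself with 5 proteins that hold, escort or cut it, and 4 proteins of sterol transport and storage. The study asked what versikine, a fragment released when the matrix proteoglycan versican is cut by proteases, does in the immune environment of a tumor. Its RNA-seq covered 17 samples. In MutuDC, an immortalised mouse line of conventional dendritic cells, the groups were Vkine+LPS (n = 3), Vkine (n = 3), EV+LPS (n = 3) and EV (n = 2). LPS is bacterial lipopolysaccharide, a stimulus of dendritic cells; Vkine stands for versikine, and EV is the label of its control, an abbreviation that often means empty vector. In the second set, CD45 cells (leukocytes) from Vkine tumors (n = 3) were set against CD45 cells from EV tumors (n = 3). The labels used here give neither the mouse strain and age nor the LPS dose and time, and they do not say how versikine was supplied; the CD45 samples carry bone marrow as their source name beside the word tumor in their sample type. MutuDC is a single line, and the labels do not say whether its replicates came from separate cultures. A p-value here therefore reflects how far these samples scatter, which may be technical. The labels also do not say whether Vkine and EV cells were derived separately. If they were, a difference between the derived cells cannot be told apart from versikine. Vkine and LPS are called agents below for short.

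Cells build cholesterol from acetyl-CoA through mevalonate, the isoprenoid diphosphates, squalene and lanosterol. When sterols in the endoplasmic reticulum run low, Scap carries SREBP2 to the Golgi, where the proteases encoded by Mbtps1 and Mbtps2 release its transcription factor domain, which raises transcription of the enzymes and of Insig1; Insig proteins hold Scap back when sterols are plentiful. In dendritic cells and macrophages this pathway is known to respond to signals of infection and interferon, and isoprenoids made on the way to cholesterol are also attached to small GTPases.

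Library totals ran between 13814620 and 21263321 counts. The MutuDC libraries carried all 10 markers of the conventional dendritic line, among them Xcr1, Clec9a, Irf8 and Batf3, while the neutrophil genes S100a8 and S100a9, the T cell genes Cd3e and Trac, the fibroblast gene Dcn and all 4 listed globin genes were at 0 in all 11. Other listed genes were detected. With Vkine+LPS, the T cell gene Cd8a, also a dendritic marker, averaged 130 CPM, the endothelial Cdh5 9.84, the B cell gene Ms4a1 2.40 and the neutrophil Lcn2 0.873. In EV the epithelial gene Cdh1 averaged 5.05 CPM. Of the 10 dendritic markers, 2 were called higher and 6 lower for Vkine over EV, against 16.9% and 18.3% of all genes tested. Mitochondrial genes took 0.936% to 1.03% of counts with Vkine+LPS, 1.72% to 1.86% with Vkine, 1.73% to 1.96% with EV+LPS and 1.36% to 1.41% in EV, and the part of this shift in the results was not tested. A list of 9 macrophage genes also moved with group, at a summed 322 to 359 CPM with Vkine+LPS, 168 to 194 with Vkine, 196 to 232 with EV+LPS and 244 to 255 in EV, with Cx3cr1 at 0 throughout. Its members did not move as 1: Csf1r averaged 115 CPM with Vkine+LPS, 22.2 with Vkine, 53.2 with EV+LPS and 144 in EV, C1qa averaged 42.1 CPM with Vkine+LPS, 28.2 with Vkine, 23.0 with EV+LPS and 6.22 in EV, and of the 6 genes of the list that were tested 4 were called higher and 1 lower for Vkine over EV. The part of these genes in the results was likewise not tested. CPM here is a gene's count scaled by edgeR's TMM factors to a common library size. A gene was called when its p from edgeR's quasi-likelihood F test, adjusted by Benjamini-Hochberg over all genes tested in that set, was under 0.05.

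All 30 genes passed the filter on low counts in MutuDC, and together they took 0.402% to 0.411% of counts with Vkine+LPS, 0.568% to 0.573% with Vkine, 0.431% to 0.452% with EV+LPS and 0.339% to 0.342% in EV. These 4 ranges did not overlap. The 30 genes thus had their highest combined share with Vkine alone, the next with LPS alone, a lower one with both, and the lowest in EV. Of the single genes, 16 had their mean CPM in that same order, and 22 had their highest mean in the Vkine group. The shares of all genes with that order or that highest group were not counted, so these counts are a description only.

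**Figure D1:**
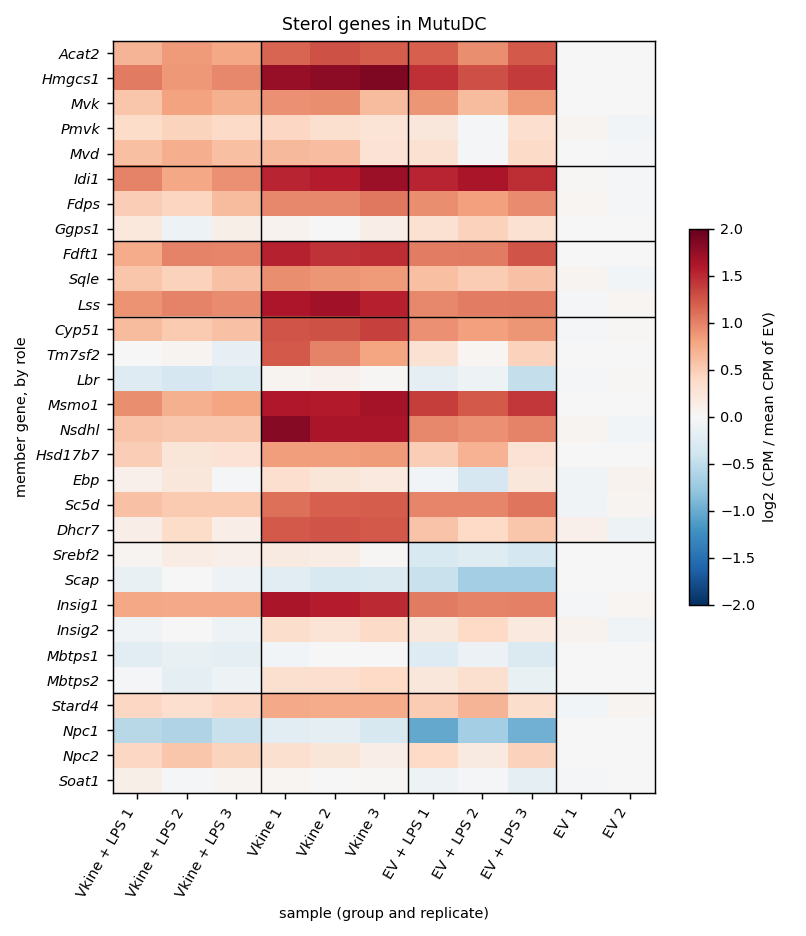
Each of the 30 genes (rows, by role) in each of the 11 MutuDC samples (columns), as log2 of its CPM over the mean CPM of the EV samples. Most enzyme rows are paler red in the 3 Vkine+LPS samples (281 to 316 CPM for Hmgcs1) than in the 3 Vkine samples (514 to 561 CPM); the Npc1 and Scap rows are blue with EV+LPS.

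The first comparison set Vkine against EV in dendritic cells without LPS. Sterol genes were higher across the synthesis route, with log2 fold changes up to 1.80 in Hmgcs1, 1.69 in Nsdhl and 1.62 in Lss. Of the 30, 22 rose, 1 fell and 7 did not pass the test, where 16.9% of all 13357 genes tested were called higher and 18.3% lower. The median log2 fold change of the 30 was 0.84, beside 0.0071 over all genes tested. The count by role was 5 of 5 mevalonate enzymes, 2 of 3 isoprenoid enzymes, 3 of 3 squalene and lanosterol enzymes, 7 of 9 later enzymes, 3 of 6 in the SREBP2 machinery and 2 of 4 in transport and storage; the medians were 0.83, 0.99, 1.49, 1.17, 0.23 and 0.13. In 25 of the 30 every Vkine sample lay above every EV sample, a pattern that 32.1% of all genes tested had. The count that rose was 18 when EV replicate 2 was left out and between 20 and 23 when any other sample was.

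LPS given to EV cells was the second comparison. It raised 19 of the 30 genes and lowered 5, against 17.2% and 17.6% of all genes tested. The median log2 fold change was 0.51, beside 0.0075 over all genes. Every isoprenoid enzyme and every squalene and lanosterol enzyme rose, whereas 3 of the 6 genes of the SREBP2 machinery fell. The 5 genes that fell were Srebf2, Scap, Mbtps1, Npc1 and Lbr, and 3 of the 5 were called when either EV sample was left out. This comparison and the first share their EV samples, so their values are given side by side and no overlap between them is read as a result.

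With both agents the genes were lower than with Vkine alone. Against Vkine, Vkine+LPS lowered 21 of the 30 genes and raised 1, with 24.3% and 27.6% of all genes tested called in those directions, and the median log2 fold change was -0.42 beside 0.0083 over all genes. Against EV, the same samples had 18 genes higher and 2 lower, with 8.91% and 6.68% of all genes called, and a median of 0.44 beside 0.0035. The 2 that fell were Npc1 and Lbr, and the Lbr call was lost with a replicate block and when any of 6 single samples was left out: either EV sample, Vkine replicate 2 or any Vkine+LPS sample.

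Vkine+LPS was then set against EV+LPS, which compares Vkine and EV cells under LPS. Here 13 of the 30 genes fell and 5 rose, with 19.2% and 22.8% of all genes tested called, and the median was -0.18 beside 0.0088. The 13 comprised 2 mevalonate enzymes, all 3 isoprenoid enzymes, Fdft1, 5 later enzymes and both Insig genes, and the 5 that rose were Mvd, Srebf2, Scap, Npc1 and Soat1. For 12 genes the level with both agents was called lower than with Vkine alone and also lower than with LPS alone. Of those 12, 10 were still called higher than in EV, with Dhcr7 and Insig2 the exceptions. Both patterns rest on the same Vkine+LPS samples. The share of all genes tested with such patterns was not counted, so they are given as a description only.

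The interaction term tests whether the log2 effect of Vkine differed between cells with LPS and cells without. It was negative and called in 20 of the 30 genes, positive and called in 3, and not called in 7, while 23.7% and 25.5% of all genes tested were called negative and positive. Its median was -0.92 over the 30 and -0.020 over all genes. All 3 positive calls, Scap, Npc1 and Srebf2, lay outside the enzymes.

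**Figure D2:**
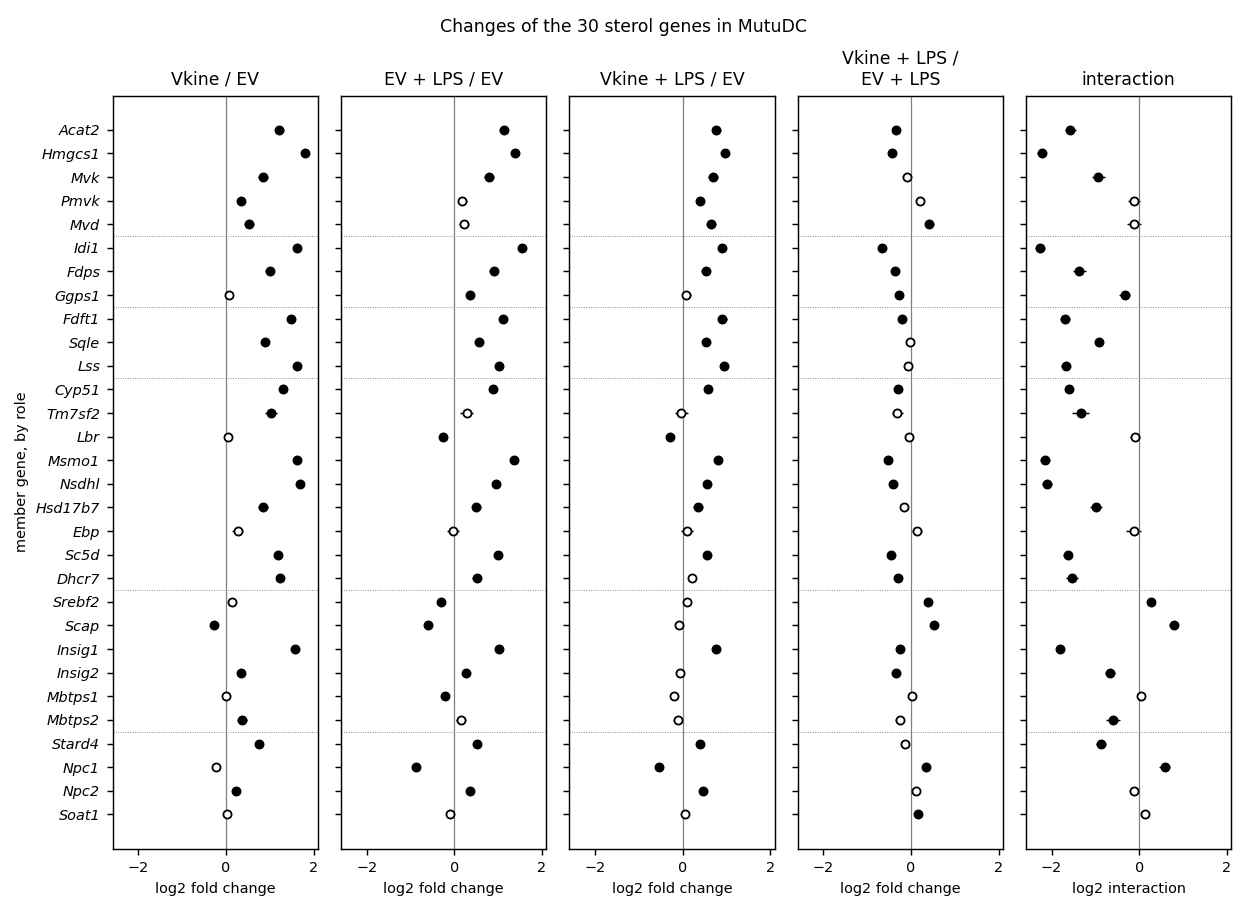
Log2 fold change of each of the 30 genes in 4 comparisons and, at the right, the log2 interaction of Vkine and LPS; bars are standard errors, filled points have an adjusted p under 0.05 (edgeR), and dotted lines separate roles. Filled points lie right of 0 for 22 genes in Vkine / EV and left of 0 for 20 genes in the interaction.

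Among the mevalonate enzymes, Hmgcs1, the cytosolic HMG-CoA synthase (ENSMUSG00000093930, GRCm38 chromosome 13, 119690379 to 119708260), had the lowest p of the 30 genes with Vkine. Its level was 316, 281 and 299 CPM in the Vkine+LPS samples, 514, 532 and 561 CPM in the Vkine samples, 423, 375 and 405 CPM in the EV+LPS samples and 152 and 155 CPM in the EV samples. No sample of any group reached into the range of another. The log2 fold change was 1.80 ± 0.079 (SE) for Vkine over EV (adjusted p = 1.01e-10), 1.39 ± 0.077 for EV+LPS over EV and 0.96 ± 0.076 for Vkine+LPS over EV. With Vkine+LPS it was lower than with EV+LPS at -0.42 ± 0.066 on the log2 scale (adjusted p = 0.000103), and the interaction was -2.23 ± 0.10 (adjusted p = 1.54e-10).

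Acat2, which condenses acetyl-CoA to acetoacetyl-CoA at the entry of the route, had 52.2, 59.1 and 55.4 CPM with Vkine+LPS, 72.7, 78.8 and 75.7 with Vkine, 74.8, 61.9 and 75.9 with EV+LPS and 32.8 and 32.4 in EV. Vkine and EV+LPS overlapped, and both lay above the other groups. The log2 fold change was 1.22 ± 0.096 for Vkine over EV and -0.35 ± 0.082 for Vkine+LPS over EV+LPS (adjusted p = 0.00263). Mvk, the mevalonate kinase, rose with Vkine by 0.83 ± 0.12 and with LPS by 0.79 ± 0.12 on the log2 scale, and had -0.10 ± 0.099 for Vkine+LPS over EV+LPS (adjusted p = 0.447). The next enzymes of the chain moved less. Pmvk, the phosphomevalonate kinase, had 62.9, 66.7 and 64.2 CPM with Vkine+LPS, 65.0, 60.8 and 59.3 with Vkine, 57.1, 47.9 and 61.9 with EV+LPS and 50.9 and 47.0 in EV. Mvd, the decarboxylase that ends the mevalonate steps, had 138, 151 and 138 CPM with Vkine+LPS, 143, 140.1 and 112 with Vkine, 113, 89.2 and 119 with EV+LPS and 92.4 and 90.4 in EV. In both genes EV+LPS overlapped EV, and Vkine+LPS lay above EV+LPS. Mvd was the single enzyme called higher for Vkine+LPS over EV+LPS, at 0.41 ± 0.10 (adjusted p = 0.00433), while Pmvk had 0.21 ± 0.085 (adjusted p = 0.0528); their interactions of -0.12 for Pmvk and -0.12 for Mvd were not called.

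The isoprenoid enzymes split in their response. Idi1, the isomerase that supplies the activated isoprene unit (ENSMUSG00000058258, chromosome 13, 8885501 to 8892451), had 106, 91.8 and 101 CPM with Vkine+LPS, 154, 159 and 175 with Vkine, 154, 166 and 149 with EV+LPS and 54.3 and 52.6 in EV. Vkine and EV+LPS overlapped, at a log2 difference of 0.058 ± 0.072 (adjusted p = 0.568), and Vkine+LPS lay between them and EV. Its changes were 1.61 ± 0.087 for Vkine over EV, 1.55 ± 0.087 for EV+LPS over EV and -0.65 ± 0.073 for Vkine+LPS over EV+LPS (adjusted p = 5.13e-06), and its interaction of -2.26 ± 0.11 was the most negative of the 30. Fdps, the farnesyl diphosphate synthase, had 14.1, 13.4 and 15.6 CPM with Vkine+LPS, 19.5, 19.4 and 20.9 with Vkine, 19.0, 17.7 and 19.2 with EV+LPS and 10.3 and 9.79 in EV, a log2 fold change of 0.99 ± 0.11 for Vkine over EV. Fdps has near-identical copies in the mouse genome and shares 26.7% of its exon bases with a neighbouring gene on its own strand, so its counts are uncertain. Ggps1, which makes the geranylgeranyl group for protein prenylation, did not pass the test with Vkine (0.066 ± 0.093, adjusted p = 0.621). It rose with LPS in EV cells, at 63.6, 70.8 and 63.5 CPM against 51.8 and 51.3 CPM in EV (0.35 ± 0.094, adjusted p = 0.0079), a call lost when either EV sample was left out. Ggps1 was also the 1 member of the 30 called lower with Vkine alone than with LPS alone (-0.29 ± 0.083, adjusted p = 0.0126), a comparison added after the values against EV had been seen, and the call was lost without Vkine replicate 2. In that comparison 18 of the 30 were called higher and 17.4% and 19.4% of all genes were called higher and lower.

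All 3 enzymes that lead to squalene and lanosterol rose with each agent. Fdft1, the squalene synthase and first step committed to sterols, had 68.2, 80.7 and 80.5 CPM with Vkine+LPS, 118, 111 and 114 with Vkine, 83.0, 84.1 and 97.3 with EV+LPS and 41.0 and 40.5 in EV. The squalene epoxidase Sqle had 269, 254 and 275 CPM with Vkine+LPS, 351, 338 and 329.8 with Vkine, 278, 261 and 274 with EV+LPS and 189.9 and 177 in EV. Lss, the cyclase that folds the epoxide into lanosterol (ENSMUSG00000033105, chromosome 10, 76531588 to 76557138), had 59.3, 63.1 and 61.6 CPM with Vkine+LPS, 97.5, 102 and 93.3 with Vkine, 62.1, 64.7 and 65.6 with EV+LPS and 31.1 and 32.6 in EV. Vkine was above every other group in all 3, EV was below, and the groups with LPS lay between them. For Vkine over EV the log2 fold change was 1.49 ± 0.095 in Fdft1, 0.89 ± 0.069 in Sqle and 1.62 ± 0.077 in Lss (adjusted p = 3.21e-10 for Lss). Vkine exceeded EV+LPS in all 3, by 0.61 ± 0.064 in Lss (adjusted p = 4.51e-06). For Vkine+LPS over EV+LPS, Sqle and Lss had -0.028 ± 0.060 and -0.065 ± 0.065 (adjusted p = 0.74 and 0.453), and Fdft1 changed by -0.21 ± 0.080 (adjusted p = 0.0487), a call lost with a replicate block, without robust estimation, with the compared groups alone, and without EV+LPS replicate 3 or any Vkine+LPS or Vkine sample. Fdft1 shares 18.3% of its exon bases with Ctsb on the opposite strand, and whether the counting used strand is not stated in the sources used here. Hmgcs1, Scap, Tm7sf2, Lbr, Idi1, Ggps1, Npc1, Cyp51 and Lss share between 3.53% and 13.2% of theirs with other genes, so the counts of all these genes hold some uncertainty.

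Of the 9 enzymes after lanosterol, 7 rose with Vkine and the sterol reductase Lbr and the isomerase Ebp did not pass the test. Msmo1, an oxidase that starts removal of further methyl groups after Cyp51 has taken the first (ENSMUSG00000031604, chromosome 8, 64718139 to 64733792), had 219.7, 189.6 and 200.2 CPM with Vkine+LPS, 352, 347 and 366 with Vkine, 303, 272 and 309 with EV+LPS and 116 and 116 in EV. Nsdhl, the dehydrogenase that follows Msmo1, had 31.2, 30.5 and 30.7 CPM with Vkine+LPS, 74.0, 65.1 and 65.0 with Vkine, 41.2, 39.7 and 42.0 with EV+LPS and 21.8 and 20.3 in EV. The 4 groups were separate in both genes and stood in the order Vkine, EV+LPS, Vkine+LPS and EV. Msmo1 changed by 1.62 ± 0.081 for Vkine over EV and -0.54 ± 0.068 for Vkine+LPS over EV+LPS (adjusted p = 1.74e-05). Nsdhl had the largest drop of the 30 when LPS was added to Vkine, -1.14 ± 0.075 (adjusted p = 5.95e-09). The ketosteroid reductase Hsd17b7, which acts with Msmo1 and Nsdhl, rose by 0.84 ± 0.10 with Vkine and had -0.15 ± 0.092 for Vkine+LPS over EV+LPS (adjusted p = 0.196).

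Cyp51, the demethylase that takes the first methyl group from lanosterol, had 333, 308 and 321 CPM with Vkine+LPS, 512, 522 and 552 with Vkine, 406, 379 and 395 with EV+LPS and 211 and 218 in EV, again with 4 separate groups. The desaturase Sc5d had 69.1, 65.8 and 66.1 CPM with Vkine+LPS, 98.8, 105 and 106 with Vkine, 90.2, 89.9 and 96.2 with EV+LPS and 43.9 and 47.9 in EV, and Vkine over EV+LPS was 0.17 ± 0.064 (adjusted p = 0.0506). Dhcr7, the reductase at the last step of one branch to cholesterol, had 28.5, 33.7 and 28.5 CPM with Vkine+LPS, 60.8, 62.1 and 60.8 with Vkine, 38.7, 34.5 and 38.4 with EV+LPS and 27.9 and 24.3 in EV. Sc5d with both agents was above EV (0.55 ± 0.075, adjusted p = 5.55e-05), whereas Dhcr7 with both agents was near EV (0.21 ± 0.10, adjusted p = 0.188). Both were called lower for Vkine+LPS over EV+LPS, at -0.46 ± 0.065 in Sc5d and -0.30 ± 0.087 in Dhcr7, the Dhcr7 call being lost without Vkine+LPS replicate 1 or 3. Ebp had 0.26 ± 0.13 for Vkine over EV (adjusted p = 0.127) and was called in none of the pairwise MutuDC comparisons in the main fit. Some other settings called it, among them the compared groups alone for Vkine over EV and for Vkine+LPS over Vkine. For Vkine over EV+LPS it was called by DESeq2, without the low-count filter and on FPKM.

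Tm7sf2 and Lbr encode reductases of the same double bond of the sterol ring, and their values differed. Tm7sf2 had 10.8, 11.2 and 9.70 CPM with Vkine+LPS, 25.3, 21.6 and 18.8 with Vkine, 13.4, 11.1 and 14.9 with EV+LPS and 10.8 and 10.8 in EV. Lbr, which is also a receptor of the inner nuclear membrane, had 304, 289.7 and 302 CPM with Vkine+LPS, 378, 386 and 371 with Vkine, 319.6, 338 and 261 with EV+LPS and 361 and 368 in EV. Tm7sf2 was high in the Vkine samples alone, and Lbr was low in both groups with LPS. The log2 fold change for Vkine over EV was 1.02 ± 0.14 in Tm7sf2 (adjusted p = 4.93e-05) and 0.052 ± 0.087 in Lbr (adjusted p = 0.675); for EV+LPS over EV it was 0.28 ± 0.15 and -0.25 ± 0.086 (adjusted p = 0.152 and 0.0333). The Lbr call with LPS was lost with upper-quartile scaling, on FPKM, with a replicate block, with the compared groups alone, and without either EV sample, EV+LPS replicate 3 or Vkine+LPS replicate 3.

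In the SREBP2 machinery the genes did not move together. Insig1, the sterol-regulated anchor of Scap and itself a target of SREBP2 (ENSMUSG00000045294, chromosome 5, 28071363 to 28078662), had 164, 161 and 161 CPM with Vkine+LPS, 296, 285 and 269 with Vkine, 197, 189.6 and 192 with EV+LPS and 93.4 and 97.8 in EV. The 4 groups were separate, in the order Vkine, EV+LPS, Vkine+LPS and EV that Hmgcs1, Msmo1, Nsdhl and Cyp51 also had. Its log2 fold change was 1.57 ± 0.069 for Vkine over EV (adjusted p = 1.01e-10), 1.01 ± 0.067 for EV+LPS over EV and -0.25 ± 0.058 for Vkine+LPS over EV+LPS (adjusted p = 0.00263). Insig2, its relative, which is known for less dependence on SREBP2, ranged less, with 30.4, 32.2 and 29.9 CPM with Vkine+LPS, 40.8, 38.8 and 41.6 with Vkine, 37.7, 42.2 and 36.7 with EV+LPS and 33.7 and 30.5 in EV. Insig2 changed by 0.33 ± 0.090 for Vkine over EV (adjusted p = 0.00915), a call lost without EV replicate 2, and by -0.33 ± 0.080 for Vkine+LPS over EV+LPS (adjusted p = 0.00354).

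Srebf2, the gene of SREBP2 itself (ENSMUSG00000022463, chromosome 15, 82147181 to 82205379), had 807, 866 and 834 CPM with Vkine+LPS, 887, 867 and 797 with Vkine, 635, 657 and 611 with EV+LPS and 786 and 776 in EV. The EV+LPS samples lay below all others, and the remaining groups were close. For Vkine over EV the log2 fold change was 0.12 ± 0.068 (adjusted p = 0.174), for EV+LPS over EV -0.30 ± 0.068 (adjusted p = 0.00271) and for Vkine+LPS over EV+LPS 0.40 ± 0.061 (adjusted p = 9.65e-05). Its transcript was thus lower with LPS alone, the comparison in which 19 of the 30 genes rose; the deposited values measure RNA, and the cut form of the protein was not measured. The interaction for Srebf2 was 0.27 ± 0.091 (adjusted p = 0.0203) and was not called with upper-quartile scaling, without the low-count filter or on FPKM, with adjusted p between 0.0595 and 0.279, nor without EV replicate 1, EV replicate 2 or Vkine+LPS replicate 2.

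Scap, the escort of SREBP2 (ENSMUSG00000032485, chromosome 9, 110333288 to 110384950), had 61.8, 68.2 and 63.9 CPM with Vkine+LPS, 59.2, 55.2 and 56.3 with Vkine, 50.1, 42.8 and 42.7 with EV+LPS and 68.8 and 68.1 in EV. It was lowest with LPS alone, and with both agents it overlapped EV. Scap was the 1 gene of the 30 called lower for Vkine over EV, at -0.27 ± 0.083 (adjusted p = 0.0198), and that call was lost on FPKM, with a replicate block, without either EV sample and without Vkine replicate 2 or 3. The LPS effect was -0.60 ± 0.084 over EV (adjusted p = 5.18e-05), Vkine+LPS over EV+LPS was 0.51 ± 0.076 (adjusted p = 7.02e-05), and the interaction of 0.78 ± 0.11 was the most positive of the 30. Of the proteases, Mbtps1 had 220.3, 233 and 228 CPM with Vkine+LPS, 249.7, 261 and 261 with Vkine, 218, 238 and 211 with EV+LPS and 259 and 259 in EV, and every sample with LPS lay below every sample without. Its log2 fold change was -0.011 ± 0.067 for Vkine over EV (adjusted p = 0.92) and -0.22 ± 0.067 for EV+LPS over EV (adjusted p = 0.0177), the call with LPS being lost with the compared groups alone and without either EV sample or EV+LPS replicate 1. Mbtps2 rose with Vkine by 0.35 ± 0.12 (adjusted p = 0.0254), a call lost without either EV sample or Vkine replicate 3, and shares 28.4% of its exon bases with Yy2 on the same strand, so its counts are uncertain.

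**Figure D3:**
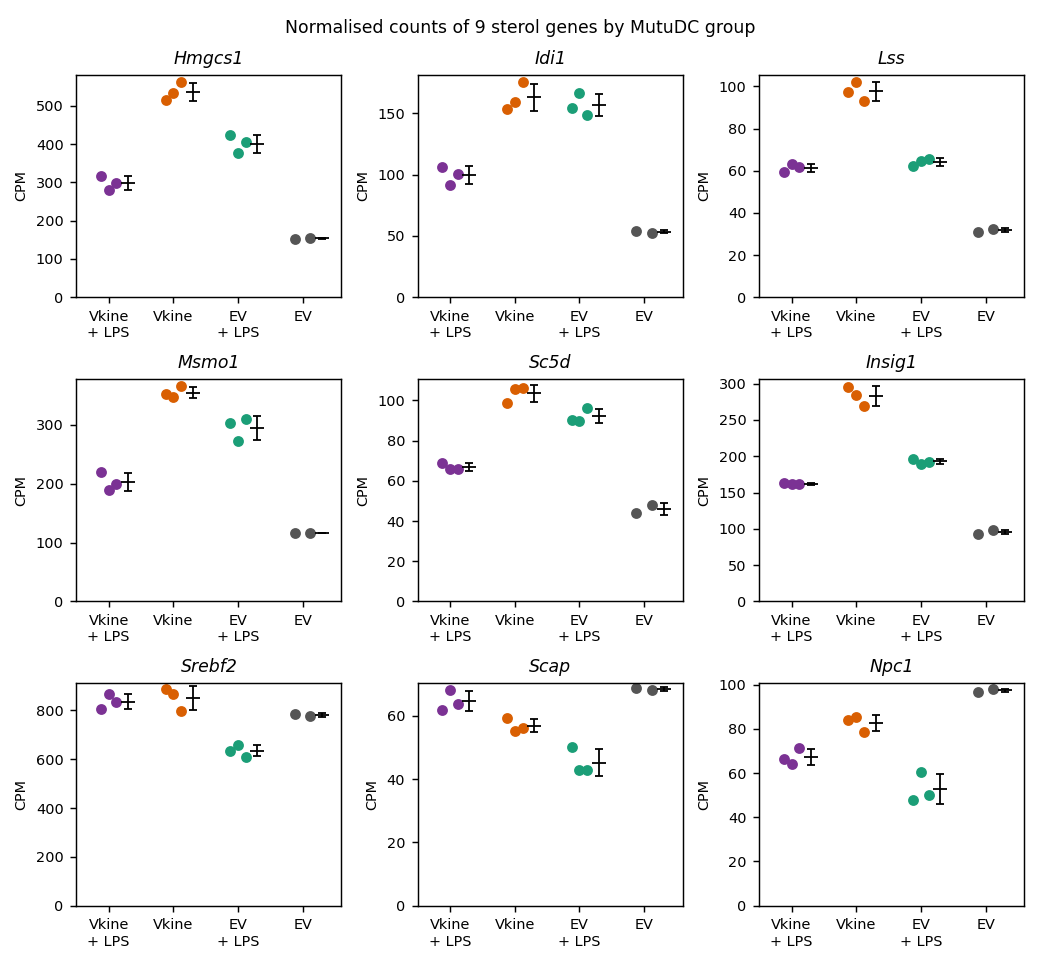
CPM of 9 of the genes in each MutuDC sample (points), with the group mean and SD beside them (n = 3, and n = 2 for EV). Hmgcs1, Idi1, Lss, Msmo1, Sc5d and Insig1 are lowest in EV, at 152 and 155 CPM for Hmgcs1, whereas Srebf2, Scap and Npc1 are lowest with EV+LPS.

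The genes of transport and storage divided likewise. Npc1, the membrane protein that exports cholesterol from lysosomes (ENSMUSG00000024413), had 66.4, 64.0 and 71.3 CPM with Vkine+LPS, 84.0, 85.4 and 78.3 with Vkine, 47.8, 60.7 and 50.3 with EV+LPS and 96.8 and 97.9 in EV. All 4 groups were separate, with EV highest and EV+LPS lowest. Npc1 changed by -0.88 ± 0.092 for EV+LPS over EV (adjusted p = 2.62e-06) and by 0.35 ± 0.084 for Vkine+LPS over EV+LPS (adjusted p = 0.0037); for Vkine over EV it had -0.24 ± 0.091 (adjusted p = 0.0531), a difference that was called when the fit held those groups alone (adjusted p = 0.00466). Its soluble partner Npc2 had 0.23 ± 0.087 for Vkine over EV (adjusted p = 0.0452), not called with a replicate block or when any of 8 of the 11 samples was left out, and rose by 0.35 ± 0.087 with LPS and 0.47 ± 0.087 with both agents. Npc2 was the 1 gene called higher when LPS was added to Vkine (0.24 ± 0.077, adjusted p = 0.0171), a call lost on FPKM, with upper-quartile scaling and without Vkine+LPS replicate 2 or Vkine replicate 3. Stard4, a cytosolic sterol carrier, had 111, 104 and 110.4 CPM with Vkine+LPS, 141, 139 and 138 with Vkine, 118, 132 and 106 with EV+LPS and 79.9 and 85.8 in EV, and rose by 0.75 ± 0.086 with Vkine. Soat1, which esterifies cholesterol for storage, kept to a narrow range with 257, 232 and 247 CPM with Vkine+LPS, 245, 237 and 242 with Vkine, 222, 230.2 and 209 with EV+LPS and 235 and 239.9 in EV. It was called for Vkine+LPS over EV+LPS alone, at 0.16 ± 0.061 (adjusted p = 0.0475), and that call was lost under 8 of 10 other settings of scaling, filter, test and fit.

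The promoters of these genes are shown because 18 of the 25 found in the RefSeq promoter table (GRCm38.p6) belong to genes that rose with Vkine. The 250 bases before each start were searched on both strands for TCACNCCAC, a form of the sterol regulatory element that SREBPs bind, for CCAAT, the box of NF-Y, a factor known to act beside SREBPs, and for the E-box CACGTG. Hmgcs1 alone of the 25 held TCACNCCAC, 4% of them, beside 1.22% of the 27025 genes in the table. CCAAT was in 21 of the 25, or 84%, beside 37.5% of all genes and 40.7% of the 9436 genes tested in MutuDC that were found. The box was in 16 of the 18 genes that rose with Vkine and in 5 of the 7 that did not, and Acat2, Scap, Mbtps1 and Mbtps2 had none. The E-box was in 5 of the 25, or 20%, beside 6.86% of all genes and 9.98% of those tested in MutuDC. A match here is a run of letters and not a measured binding site, and the windows of Stard4, Npc1, Fdft1, Sqle and Fdps were not searched.

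The stretch of the Hmgcs1 promoter that carries all its matches is chr13:119690101-119690325 on the plus strand, and it is printed because it alone holds both motifs; capitals mark TCACNCCAC and, as CCAAT or its reverse complement ATTGG, the NF-Y boxes.
Hmgcs1: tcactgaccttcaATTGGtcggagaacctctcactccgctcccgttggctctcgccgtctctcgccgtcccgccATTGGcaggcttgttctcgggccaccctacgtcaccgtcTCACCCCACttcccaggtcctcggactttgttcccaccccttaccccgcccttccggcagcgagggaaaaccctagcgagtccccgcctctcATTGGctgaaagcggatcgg
The next stretches, printed with 15 bases on each side of the outermost boxes where the window allows, belong to the other genes singled out by p in the MutuDC comparisons, apart from Scap and Mbtps1, which held no box, and Npc1; capitals mark CCAAT or ATTGG. They lie at chr13:8885546-8885605 (plus strand) for Idi1, chr10:76531528-76531562 (plus) for Lss, chr8:64733614-64733753 (minus) for Msmo1, chr9:42264305-42264339 (minus) for Sc5d, chr5:28071181-28071215 (plus) for Insig1 and chr15:82147119-82147153 (plus) for Srebf2. The starts used are those of RefSeq and differ from the gene bounds given above. The Idi1 and Msmo1 stretches lie within those bounds.
Idi1: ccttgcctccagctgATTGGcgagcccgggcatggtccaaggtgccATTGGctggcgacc
Lss: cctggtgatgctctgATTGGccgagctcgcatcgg
Msmo1: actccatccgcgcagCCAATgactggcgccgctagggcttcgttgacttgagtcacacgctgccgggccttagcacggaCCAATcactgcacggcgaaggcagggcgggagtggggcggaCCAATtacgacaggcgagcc
Sc5d: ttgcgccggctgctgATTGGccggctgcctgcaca
Insig1: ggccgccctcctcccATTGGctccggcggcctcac
Srebf2: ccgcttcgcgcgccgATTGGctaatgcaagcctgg
Hmgcs1 and Msmo1 each held 3 boxes in 1 window, Idi1 held 2, and Lss, Sc5d, Insig1 and Srebf2 held 1. Srebf2, whose RNA fell with LPS alone, thus carries the box, as do 16 of the 18 genes found that rose with Vkine.

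Other genes of lipid supply were counted in the same fit, where 16.9% of all genes tested were called higher and 18.3% lower for Vkine over EV, and 22.8% and 19.2% for Vkine+LPS over EV+LPS. In the fatty acid branch, which answers mainly to SREBP1, 10 of 13 genes rose and 0 fell with Vkine over EV, and 1 rose and 8 fell for Vkine+LPS over EV+LPS; the medians were 0.70 and -0.30. Scd1, a desaturase that makes oleate, had 18.6, 19.5 and 21.1 CPM with Vkine+LPS, 129, 134 and 147 with Vkine, 89.0, 103 and 85.9 with EV+LPS and 21.5 and 22.2 in EV. Its Vkine+LPS samples lay below those of EV, unlike Hmgcs1, and the log2 fold changes were 2.64 ± 0.10 for Vkine over EV and -2.23 ± 0.087 for Vkine+LPS over EV+LPS. Scd2 changed by 1.75 and -1.03 in those comparisons, Acss2, which makes acetyl-CoA from acetate, rose by 1.76 in the first, and the desaturase Fads1 changed by -0.47 in the second. For Vkine+LPS over EV, 1 of the 13 fatty acid genes was called, Scd2 at 0.23, beside 18 of the 30 sterol genes called higher. Of all genes tested, 8.91% were called higher in that comparison and 6.68% lower, so the fatty acid count was near those shares.

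Of 5 tested genes of oxysterols and their receptor LXR, 4 rose with Vkine (16.9% of all genes did) and 4 fell for Vkine+LPS over EV+LPS (19.2% of all genes). Abcg1, a cholesterol exporter and LXR target, had 27.3, 28.9 and 29.1 CPM with Vkine+LPS, 75.4, 67.5 and 68.5 with Vkine, 69.2, 74.1 and 74.1 with EV+LPS and 24.8 and 23.5 in EV. Its level was high with either agent alone and near EV with both, with log2 fold changes of 1.55 ± 0.085 for Vkine over EV, -1.35 ± 0.073 for Vkine+LPS over EV+LPS and 0.24 ± 0.086 for Vkine+LPS over EV (adjusted p = 0.0759). Gpr183, a receptor for oxysterols that guides immune cells, rose by 0.98 with Vkine, the oxysterol-making Cyp27a1 changed by 0.52 with Vkine and -0.62 for Vkine+LPS over EV+LPS, and Mylip, the ubiquitin ligase of lipoprotein receptors, changed by -1.24 for Vkine+LPS over EV+LPS. Of 12 regulators of SREBP and of sterol enzymes in the endoplasmic reticulum, 0 rose and 2 fell with Vkine, where 16.9% and 18.3% of all genes did, a share of falls near that of all genes; the 2 were the ubiquitin ligases Rnf145 (-0.54) and Syvn1 (-0.50). For Vkine+LPS over EV+LPS 6 of those 12 rose, against 22.8% of all genes, among them Syvn1 (0.54), and Erlin1 fell (-0.35).

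Of 13 users of isoprenoids outside the sterol route 0 rose and 3 fell with Vkine, where 16.9% and 18.3% of all genes did, so the falls were near the share of all genes. The 3 were the prenylation enzymes Rce1 (-0.47), Fntb (-0.40) and Icmt (-0.30), and for Vkine+LPS over EV+LPS 3 rose, also near the 22.8% of all genes, again Rce1, Fntb and Icmt, by 0.49, 0.59 and 0.52. Of 16 other tested genes of sterol transport and ester turnover, 4 rose and 2 fell with Vkine, and 6 rose and 2 fell for Vkine+LPS over EV+LPS, where 16.9% and 18.3% of all genes rose and fell in the first comparison and 22.8% and 19.2% in the second; the counts with Vkine were near those shares. Lrp1, an endocytic receptor for lipoprotein remnants, had 30.7, 32.7 and 32.4 CPM with Vkine+LPS, 24.1, 22.0 and 21.4 with Vkine, 12.1, 16.0 and 12.7 with EV+LPS and 41.9 and 42.1 in EV. The 4 groups of Lrp1 were separate, with EV highest and EV+LPS lowest, and its changes were -0.90 ± 0.10 for Vkine over EV and 1.23 ± 0.10 for Vkine+LPS over EV+LPS.

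**Figure D4:**
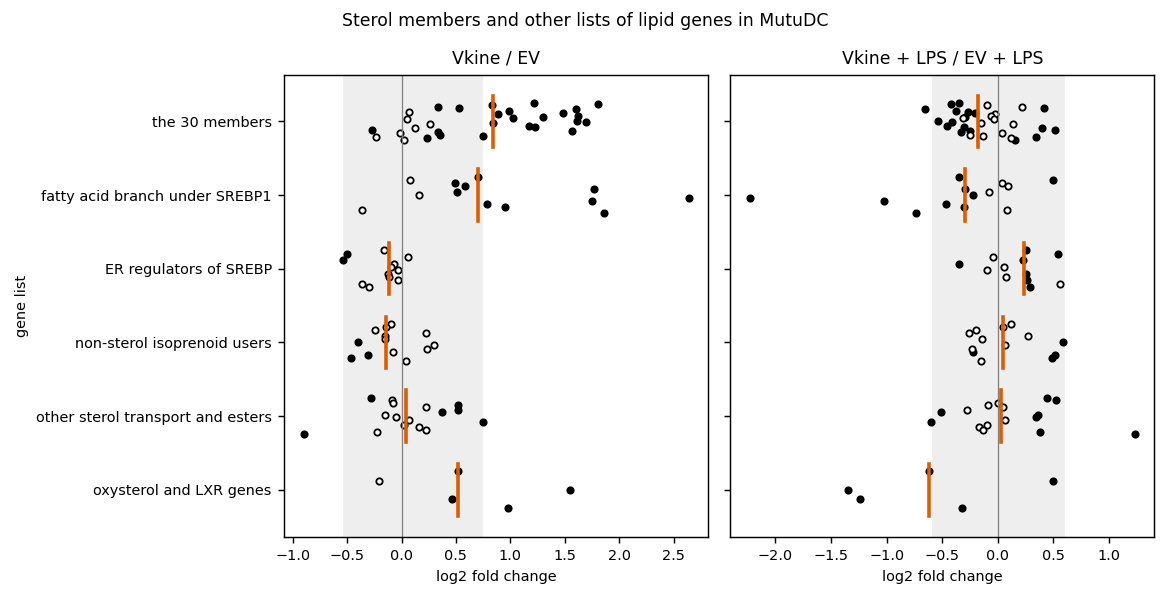
Log2 fold changes of the 30 genes and of 5 other lists of lipid genes for Vkine / EV (left) and Vkine + LPS / EV + LPS (right); filled points have an adjusted p under 0.05 (edgeR), orange bars are list medians, and the grey band spans the middle of all 13357 genes from the 10th to the 90th percentile. The medians of the 30 genes are 0.84 on the left and -0.18 on the right, and those of the fatty acid genes are 0.70 and -0.30.

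In CD45 cells of tumors none of the 29 sterol genes that passed the filter was called between Vkine and EV, where 4 of 14006 genes, 0.0286%, were called in all. The median log2 fold change of the 29 was -0.13, beside -0.0020 over all genes, and 12 of the 29 were positive. At an unadjusted p under 0.05 there were 2, Hmgcs1 and Mbtps2, by edgeR and 1, Hmgcs1, by DESeq2, and in all 1683 genes by edgeR. That count of 2 became 6 without the low-count filter, namely Dhcr7, Hmgcs1, Hsd17b7, Lbr, Sc5d and Soat1, 1 with a replicate block, Hsd17b7, and 0 on both FPKM scales; dropping Vkine replicate 3 or EV replicate 2 left 1, and dropping EV replicate 1 left 0. The replicate block in CD45 compares only the 2 pairs of samples that share a number. Fdps was left out by the filter, at no more than 0.928 CPM in any sample. Its counts are uncertain, as said above, so this need not be its true level. The 30 genes took 0.187% to 0.221% of counts with Vkine and 0.209% to 0.231% in EV, ranges that overlap.

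The values varied more between CD45 samples than in MutuDC. Hmgcs1 had 45.9, 63.7 and 50.05 CPM in Vkine samples and 80.2, 57.5 and 85.3 CPM in EV samples, which gave -0.48 ± 0.19 on the log2 scale (adjusted p = 0.36). Insig1 had 45.2, 112 and 79.6 CPM in Vkine samples and 65.3, 70.6 and 88.5 CPM in EV samples (0.081 ± 0.29, adjusted p = 0.936). Both genes overlapped between the groups. Idi1 had 3.99, 19.6 and 12.8 CPM in Vkine samples and 18.3, 7.80 and 16.2 CPM in EV samples, and its 2 lowest values came from Vkine replicate 1 and EV replicate 2. Srebf2 had 126, 207 and 188 CPM with Vkine and 164, 128 and 168 CPM in EV, Soat1 215, 286 and 307 CPM with Vkine and 233, 145 and 228 CPM in EV, and Npc1 81.8, 129.9 and 104 CPM with Vkine and 108, 101 and 106 CPM in EV. None of these groups was separate. In Insig2, Mbtps2 and Msmo1 every Vkine sample lay below every EV sample, as in 9.42% of all genes tested, and in 0 of the 29 did every Vkine sample lie above, as in 9.21% of all genes. For Msmo1 those values were 43.0, 49.4 and 50.8 CPM with Vkine and 52.8, 53.8 and 62.7 CPM in EV (-0.24 ± 0.14, adjusted p = 0.536).

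The standard errors of the 29 ran between 0.145 and 0.537 with a median of 0.22, beside 0.067 to 0.14 and a median of 0.088 for Vkine over EV in MutuDC, so only larger changes could be called here. In these bulk samples, fewer cells of a type and less RNA per cell cannot be told apart. Markers of other cells summed to 3412 to 5282 CPM with Vkine and 323 to 1985 CPM in EV for 8 neutrophil genes. For 9 macrophage genes the sums were 5218 to 8144 CPM with Vkine and 7774 to 9252 CPM in EV, ranges that overlap. For 6 T cell genes they were 20.9 to 31.3 CPM with Vkine and 6.10 to 13.1 CPM in EV. Sums of 6 fibroblast genes were 153 to 252 CPM with Vkine and 97.3 to 192 in EV. For 4 endothelial genes they were 80.7 to 168 and 39.6 to 137 CPM. Epithelial genes, 5 in number, had 44.4 to 60.6 and 45.0 to 68.3 CPM, and 4 B cell genes 3.31 to 5.84 and 5.68 to 6.25. The ranges of these last 4 lists overlap. All 10 dendritic markers had positive log2 fold changes. None of the genes in these lists was called between the groups, where 0.0286% of all genes were. Their part in the values was not tested. Vkine replicate 1 stood apart with 10.6% mitochondrial counts, against 2.47% to 5.56% in the other samples, and 314 CPM of 5 erythroid genes, against 8.47 to 28.6 CPM. Without it 0 of the 30 genes were called and 4 had an unadjusted p under 0.05, namely Acat2, Lbr, Soat1 and Srebf2.

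**Figure D5:**
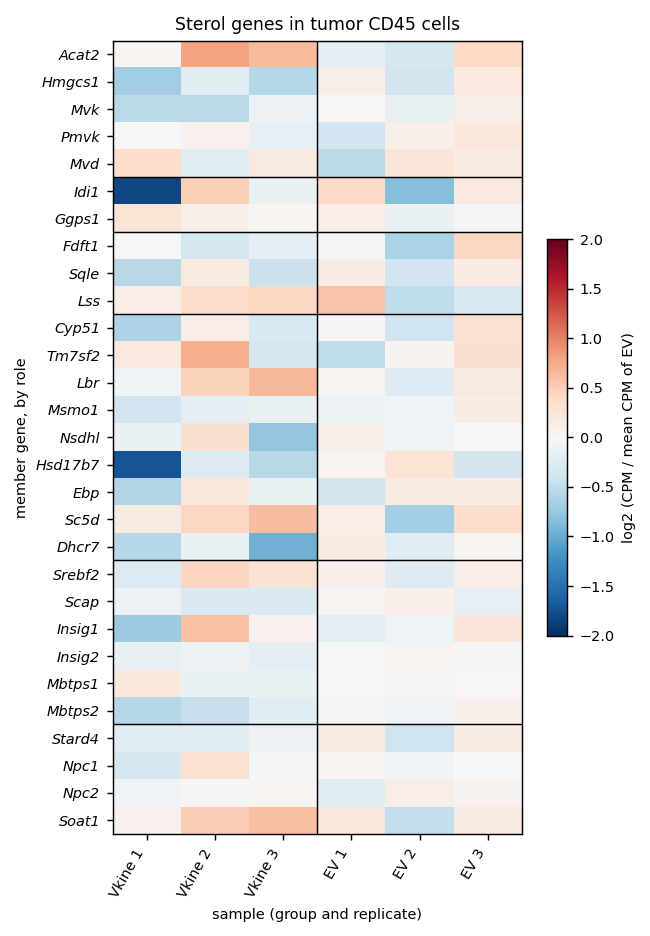
Each of the 29 tested sterol genes (rows, by role) in the 6 tumor CD45 samples (columns), as log2 of its CPM over the mean CPM of the EV samples, on the same colour scale as the MutuDC plot. Red and blue are mixed within both groups, and Idi1 is bluest in Vkine replicate 1, at 3.99 CPM.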

How the data were processed

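RNA-seq was analysed from the deposited raw counts per gene of 17 mouse samples, 11 of MutuDC and 6 of tumor CD45 cells. The submitters' processing notes name build GRCm38 with the tools STAR, fastp, DESeq2 1.20.0 and featureCounts 1.5.0-p3; no role or setting of a tool is stated there. In MutuDC the FPKM values the authors deposited follow the counts divided by total and gene length, with a length that the deposit does not define. In CD45 the length implied by FPKM varied between samples, for Acat2 from 2423 to 2763 beside a given length of 2544. The CD45 FPKM thus hold a further factor per sample. FPKM therefore served as an alternative, and no levels were compared between genes. The 2 sets were fitted apart, each in 1 model over its groups, with edgeR 4.0.16 (quasi-likelihood F test with robust estimation, TMM factors, genes kept by filterByExpr) in R 4.3.3, and p-values were adjusted by Benjamini-Hochberg over all genes tested, with calls under 0.05. Standard errors were derived from the log2 fold change and its F value. Precision follows depth, which ran between 13814620 and 21263321 counts a sample. The code was tested on simulated counts. Alternatives were DESeq2 1.42.0 and its size factors, upper-quartile factors, other filters, limma 3.58.1 on log2(FPKM + 1) and log2(FPKM + 0.1), a replicate block, the compared groups alone and each sample left out. Genes named by rule were those with the smallest p in each direction, 3 per direction and MutuDC comparison of Vkine, plus Srebf2, Insig1, Insig2, Soat1 and Npc1; values of other genes are given by role, chosen after they were seen. The 30 genes and the other lists were chosen with earlier results of these data known. Promoters came from RefSeq (GRCm38.p6), and gene coordinates from the deposited tables.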

Additional observations from a re-analysis of the deposited data

Results flagged for a closer look

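The log2 effect of Vkine differed between MutuDC cells with LPS and cells without in 23 of the 30 sterol genes, by the test of that difference itself (edgeR's quasi-likelihood test of the interaction, adjusted over all 13357 genes tested), where 23.7% of all genes were called negative and 25.5% positive. Among the mevalonate and isoprenoid enzymes the log2 interaction was -2.23 in Hmgcs1, -1.57 in Acat2, -0.93 in Mvk, -2.26 in Idi1, -1.37 in Fdps and -0.34 in Ggps1. In the steps to lanosterol it was -1.69 in Fdft1, -0.91 in Sqle and -1.68 in Lss. The later enzymes had -1.59 in Cyp51, -1.33 in Tm7sf2, -2.15 in Msmo1, -2.10 in Nsdhl, -0.99 in Hsd17b7, -1.63 in Sc5d and -1.53 in Dhcr7. Outside the enzymes it was -1.82 in Insig1, -0.66 in Insig2, -0.61 in Mbtps2 and -0.88 in Stard4, and it was positive in Scap at 0.78, Npc1 at 0.58 and Srebf2 at 0.27. The Ggps1 interaction was not called with a replicate block, nor without EV replicate 1 or 2, Vkine replicate 1 or 3, or Vkine+LPS replicate 2 or 3. The Srebf2 interaction was not called with upper-quartile factors, without a low-count filter, on both FPKM scales, nor without EV replicate 1 or 2 or Vkine+LPS replicate 2.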

How the results depend on the processing

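No called change of the 30 genes turned its direction under any setting run. For Vkine over EV, the 1 gene called lower became 2 without a low-count filter and with the compared groups alone, 0 with the replicate block, 0 with log2(FPKM + 1), 0 with log2(FPKM + 0.1), and 0 to 2 with single samples left out, while 18 to 23 genes were called higher over all settings. For EV+LPS over EV, the 5 called lower became 3 with the compared groups alone and 3 to 5 with single samples left out. For Vkine+LPS over Vkine, the 1 called higher became 0 with upper-quartile factors and on both FPKM scales, 2 with the compared groups alone, and 0 to 2 with single samples left out. For Vkine+LPS over EV, the 2 called lower became 1 with the replicate block and 1 to 3 with single samples outside EV left out. They became 3, with Mbtps1 added, under upper-quartile factors, DESeq2, both FPKM scales and the compared groups alone. For Vkine over EV+LPS the 1 called lower ranged between 0 and 2. The cause was not tested. The other counts of the 30 called higher or lower in a comparison lay within 1.5 times of their values in the settings run, and in CD45 cells 0 were called throughout; counts of patterns across comparisons were not recomputed. In CD45 the 2 genes at an unadjusted p under 0.05 became 6 without a low-count filter, 1 with the replicate block, 0 on both FPKM scales and 0 to 4 with single samples left out, and the median there ranged between -0.17 and 0.029, the highest value with the replicate block. That block rests on 2 pairs, 4 of the 6 CD45 samples, because replicate 3 of each group shared no number with the other group. The titles behind these numbers are not explained. Replicate numbers did not pair the MutuDC samples: deviations of same-numbered samples correlated between -0.10 and 0.096 over 15 pairs, and 4 of 11 samples correlated best with their own number; in CD45 the 2 pairs gave -0.049 and 0.036. With the replicate block, Scap and Npc2 were no longer called for Vkine over EV. A group of 2 or 3 samples limits all these tests, and leaving out an EV sample leaves 1, which is then assumed to vary like the other groups.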
